A study of Mus musculus with 6 samples.

Results

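Circular RNAs of the genes that control the kinase mTOR were examined in mouse cortex, in Control animals and in TLE animals. The table of the series lists 11171 circRNAs, and 16 of them come from the 8 host genes Depdc5, Nprl2, Nprl3, Tsc1, Tsc2, Mtor, Rptor and Rictor, matched by the Ensembl identifier of the listed source gene. Depdc5 had 6 circRNAs, Rptor had 3, Tsc1, Mtor and Rictor had 2 each, and Tsc2 had 1. No circRNA was listed for Nprl2 or Nprl3, or at their coordinates. The hosts were put together after the circRNA mmu_circ_0008091 of Depdc5 was known to be higher in TLE in these libraries, so the hosts were chosen by its SRPBM values. Its own values are therefore given as a description and without a test.

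The libraries were made from total RNA of the cortex of 6-week-old male C57BL/6 mice (C57BL/6J in the methods of the study) after removal of ribosomal RNA, with 1 library per mouse, 3 for Control and 3 for TLE. TLE mice, labelled pilo, received scopolamine methyl bromide, pilocarpine to induce Status Epilepticus (SE) and diazepam to end it, and the cortex was taken 24 h after SE. Control mice received saline in place of scopolamine methyl bromide, pilocarpine and diazepam. The cortex was used as a whole tissue without separation of cell types.

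mTOR is a kinase that couples nutrients and growth factors to protein synthesis and cell growth, and it works in a complex with Raptor (mTORC1) or with Rictor (mTORC2). GATOR1, formed by DEPDC5, NPRL2 and NPRL3, switches mTORC1 off when amino acids are scarce, and the TSC complex, built on TSC1 and TSC2, switches it off when growth factors or energy are lacking. Loss-of-function variants of GATOR1 and TSC genes are known causes of epilepsy in humans. A circRNA forms when an exon is spliced backwards, its end joined to the beginning of an earlier exon, and reads across this junction tell it apart from the linear mRNA, which was not measured here.

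The values are SRPBM, spliced junction reads scaled to the mapped reads of the library. Within a library each value was a whole multiple of 1 step, taken as 1 junction read and worth between 8.55 and 10.3 SRPBM, and the smallest value listed was 2 steps. The libraries held between 32504 and 56516 junction reads. The floor used for bounds was 3 junction reads (25.6 to 31.0 SRPBM by library) and reflects counting error alone. A 0 is reported as the table has it, since the table kept no junction with fewer than 2 reads. TLE replicate 3 was the deepest library and had the most circRNAs (5976, against 3989 to 5052 in the others). Of the neuron markers used to check the tissue, 5 of 9 had circRNAs, with a summed level of 663 to 967 SRPBM in Control and 744 to 1116 in TLE. Of the 5 astrocyte markers, only Slc1a2 had any, at 0 to 17.2 SRPBM in Control and 0 to 34.6 in TLE. None of the 5 markers each of oligodendrocytes, microglia and endothelial cells had a listed circRNA, so a change in the share of these cells could not be read from circRNAs of their markers.

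Each of the 16 circRNAs started and ended exactly at annotated exon edges of its host in GENCODE release M21 on mouse build GRCm38 (mm10), against 83.0% of all listed circRNAs. All 16 have a host by selection, whereas the listed circRNAs include 837 without one, which could not be placed. The shares are therefore not directly comparable. The junctions of the circRNAs that the results turn on are shown to let each be told from its neighbours. The last 15 bases of the final exon are in lower case and the first 15 bases of the first exon are in capitals.
Depdc5 mmu_circ_0008091, exons 3 to 9, chr5:32867974-32893453, plus strand: attttgatatttatgATGATGAGCTAGTCG
Depdc5 mmu_circ_0008090, exons 3 to 8, chr5:32867974-32887048, plus strand: agtgaagagaccaggATGATGAGCTAGTCG
Rptor mmu_circ_0000627, exons 8 to 13, chr11:119798769-119823021, plus strand: ctcgctgtcgacagtGATCCCTGGCCGGCT
Rptor mmu_circ_0000628, exons 10 to 13, chr11:119811945-119823021, plus strand: ctcgctgtcgacagtGCAGGCCTGGGACCT
Tsc1 mmu_circ_0006031, exons 2 to 8, chr2:28652169-28665629, plus strand: actggaccctcgaagTGACCATGAAAGATA
Tsc1 mmu_circ_0006032, exons 4 to 6, chr2:28661582-28663644, plus strand: gcctgaagaaaccagAACGTGGGCCTATGC
Rictor mmu_circ_0002902, exons 3 to 6, chr15:6735365-6750721, plus strand: cgcttagtcagaaagAACCTTCTGATAACT
The Depdc5 pair shares its capitals, the start of exon 3, and the Rptor pair shares its lower-case part, the end of exon 13.

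The circRNAs of 1 host often shared an end or lay next to each other. In Depdc5, which has 43 exons in the annotated transcript, mmu_circ_0008091 stopped at exon 9, and mmu_circ_0008092 (exons 10 to 14) and mmu_circ_0008093 (exons 10 to 20) began after the same intron of 2426 bases. The circRNA mmu_circ_0008094 (exons 21 to 36) began at the exon that follows mmu_circ_0008093 and shared its end with mmu_circ_0008095 (exons 34 to 36). In Rptor, with 34 exons, mmu_circ_0000626 (exons 5 to 7) and mmu_circ_0000627 (exons 8 to 13) lay on either side of an intron of 18166 bases. Both circRNAs of Mtor, which has 58 exons, began at exon 20 and ended at exons 28 and 30. The circRNA of Tsc2, mmu_circ_0003560, held exons 3 to 6 of 40.

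**Figure D1:**
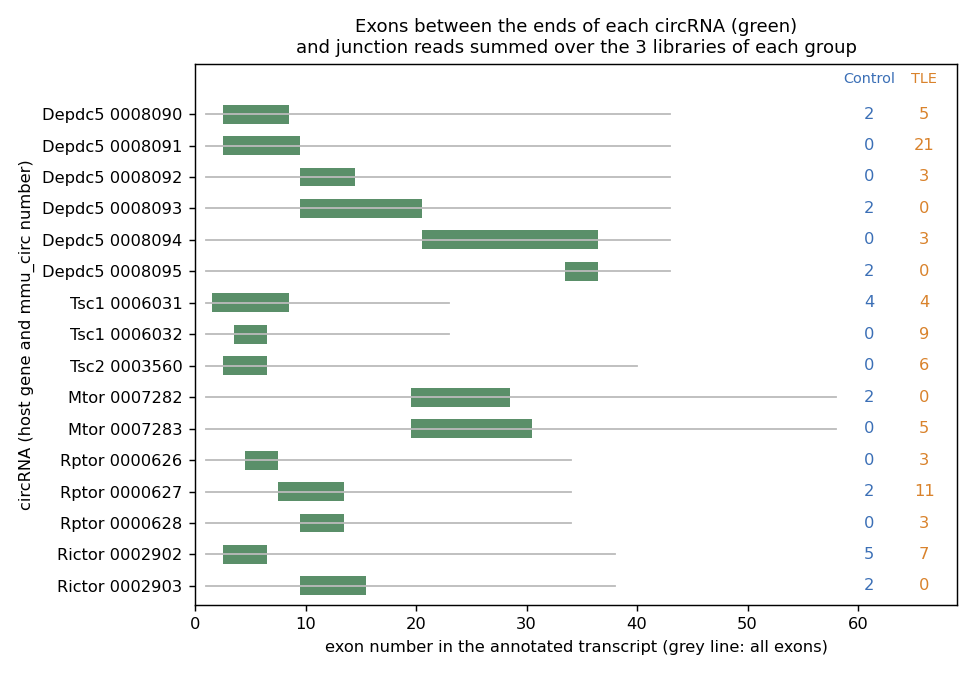
Exons between the ends of the 16 circRNAs (green bars) by exon number in the annotated transcript of the host (grey lines), with the junction reads summed over the 3 libraries of each group at the right. The Depdc5 circRNAs meet at exons 9 and 10 and at exons 20 and 21, and mmu_circ_0008091 has 21 junction reads, all in TLE.

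The circRNAs held between 3 and 16 exons, with a median of 6, against a median of 4 over the 9268 listed circRNAs that could be placed on a transcript of their host in the same way. Their exons added up to a median of 469.5 nucleotides, against 607, with the shortest at 359 (Rictor mmu_circ_0002902) and the longest at 2215 (Depdc5 mmu_circ_0008094). These lengths follow from the annotation, since a junction read carries no information on the exons between the ends. The introns before and after the circRNAs had medians of 4994.5 and 5142 bases, against 10288 and 8679 over all placed circRNAs. Within their own hosts, 15 of 16 circRNAs had an upstream intron longer than the median intron of the transcript, and 15 of 16 a downstream one, against 82.2% and 82.1% of all placed circRNAs. Tsc1 mmu_circ_0006031 was the only one of the 16 that began at exon 2, where 29.8% of all placed circRNAs began. It was also the only one to hold the start codon, with 143 untranslated and 737 coding nucleotides. The other 15 were made up of coding exons alone. The exonic length of mmu_circ_0008091 was 504 nucleotides, 10.6% of the coding sequence of Depdc5, and it was 1 of 4 of these circRNAs whose length is a multiple of 3.

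Most of these circRNAs were near the limit of detection. Their median total was 4 junction reads, against 5 for all listed circRNAs. Of the 16, 9 were detected in 1 library only, as were 45.4% of all listed circRNAs. None was detected in all 6 libraries, where 1553 of the 11171 listed were. Only Depdc5 mmu_circ_0008091, with 21 reads, Rptor mmu_circ_0000627, with 13, and Rictor mmu_circ_0002902, with 12, had 10 or more, beside 34.2% of all listed. Each library listed between 0 and 9 of the 16, the most in TLE replicate 3, the deepest. Control replicate 3 listed none of them, although it held 41797 junction reads and had circRNAs of 61.1% of all host genes, a share within the 55.0% to 69.6% of the other libraries.

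Summed over the 16 circRNAs, the Control libraries were at 111, 74.4 and 0 SRPBM, and the TLE libraries at 227, 193 and 312 SRPBM. Without mmu_circ_0008091 the TLE libraries were at 155, 140 and 242 SRPBM. The lowest TLE library exceeded the highest Control library without that circRNA, and also with it, though its values chose the hosts. Of the sums of single host genes tested, 10.8% were separated in this direction. No such share was obtained for sums over several hosts, so the separation is given as a description. With Control replicate 3 left out, the Control mean rose from 61.8 to 92.7 SRPBM, beside a TLE mean of 244 SRPBM. The reads behind these sums were 21 in Control and 80 in TLE, or 59 in TLE without mmu_circ_0008091, among 118526 and 135673 junction reads of the groups. Leaving out mmu_circ_0008091, whose values chose the hosts, 7 of 15 were listed at 0 in every Control library, where 30.5% of all listed circRNAs were, and 4 of 15 were listed at 0 in every TLE library, where 22.6% of all were. Among the 8186 circRNAs with the same range of reads as these 15 (2 to 13), these shares were 41.5% and 30.7%. In whole cortex, fewer cells of a type and less RNA per cell cannot be told apart.

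**Figure D2:**
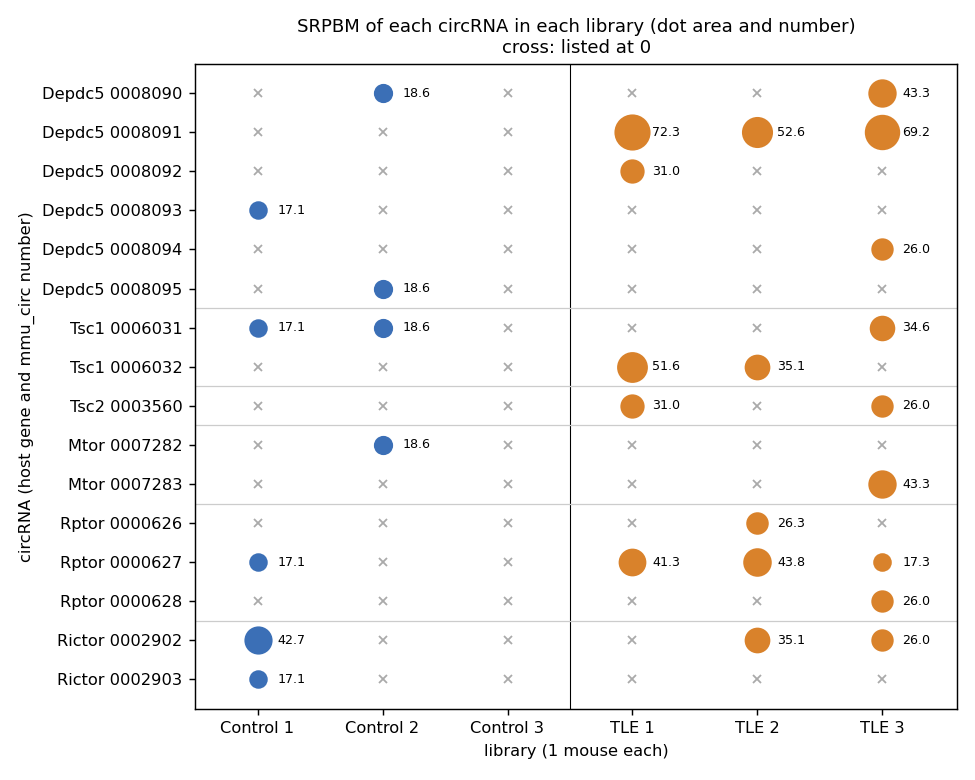
SRPBM of the 16 circRNAs (rows, by host gene) in the 6 libraries (columns), with dot area and number giving the value, blue for Control and orange for TLE, and a cross for values listed at 0. Depdc5 mmu_circ_0008091 is the only one present in the 3 TLE libraries and absent from the Control libraries, and the Control 3 column holds crosses only.

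DEPDC5 is the subunit through which GATOR1 binds the Rag GTPases. Its gene (ENSMUSG00000037426) spans chr5:32863701-32994236 on the plus strand. The circRNA mmu_circ_0008091 had a 0 in each Control library, whereas TLE replicates 1, 2 and 3 had 72.3, 52.6 and 69.2 SRPBM, a TLE mean of 64.7 SRPBM. The TLE mean was 2.45-fold the mean floor of the Control libraries, a bound that leaves out counting error in TLE. The log2 fold change was 2.25 on the log2(SRPBM + 17.1) scale, which depends on the constant added and is no bound. This circRNA made up 21 of the 38 junction reads of the host.

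None of the other 5 circRNAs of Depdc5 had this pattern. The circRNA mmu_circ_0008090, which has the same first exon and ends an exon earlier, was at 18.6 SRPBM in Control replicate 2 and at 43.3 SRPBM in TLE replicate 3, and at 0 in the other 4 libraries. Its groups overlapped. The remaining 4 were each detected in 1 library, mmu_circ_0008092 in TLE replicate 1 (31.0 SRPBM), mmu_circ_0008093 in Control replicate 1 (17.1 SRPBM), mmu_circ_0008094 in TLE replicate 3 (26.0 SRPBM) and mmu_circ_0008095 in Control replicate 2 (18.6 SRPBM).

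The sum of these 5 Depdc5 circRNAs did not differ between the groups beyond the spread of the libraries. It had Control values of 17.1, 37.2 and 0 SRPBM against 31.0, 0 and 69.2 SRPBM under TLE, so the groups overlapped. The log2 fold change of this sum was 0.39 (standard error 0.71, 95% confidence interval -1.10 to 1.87, adjusted p = 0.933, limma with Benjamini-Hochberg adjustment over all host gene sums). The interval is wide and leaves room for changes in either direction. Without Control replicate 3 the value was -0.06, and without TLE replicate 3 it was -0.14. In the other direction, it was 0.78 without Control replicate 2 and 1.03 without TLE replicate 2. With mmu_circ_0008091, the Depdc5 sum had Control values of 17.1, 37.2 and 0 SRPBM against 103, 52.6 and 138 SRPBM under TLE, which is given as a description. The 2 other GATOR1 genes, without circRNAs, are shorter than Depdc5, with Nprl2 (ENSMUSG00000010057) at chr9:107542226-107545706 and 11 exons and Nprl3 (ENSMUSG00000020289) at chr11:32225628-32267707 and 13 exons. Nprl3 spans 42080 bases, and Tsc2, which had a circRNA, spans 36815. A role of gene length was not tested.

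Rptor encodes Raptor, which brings substrates to mTORC1, and lies at chr11:119602905-119899576 on the plus strand (ENSMUSG00000025583). Its most frequent circRNA, mmu_circ_0000627, had Control values of 17.1, 0 and 0 SRPBM against 41.3, 43.8 and 17.3 SRPBM under TLE. By SRPBM the TLE values all exceeded the Control values, as for 8.94% of the circRNAs tested. The gap is nominal, since Control replicate 1 and TLE replicate 3 each had 2 junction reads. No Control library was above the floor, and the TLE mean of 34.2 SRPBM was 1.29-fold this floor. TLE replicate 3 was itself below its floor. The log2 fold change of 1.21 (standard error 0.62, 95% confidence interval -0.10 to 2.51) did not pass the threshold of the study, a log2 fold change of 1.5 with p under 0.05 (adjusted p = 0.922, limma). The unadjusted p was 0.0688. The TLE libraries alone met the requirement of values above 0 in at least 3 libraries, so these results are given as values and not as support for a change. Without Control replicate 1, which held its only Control reads, the log2 fold change was 1.54, past the threshold. In that setting 97 of all 3722 circRNAs tested were called higher.

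The other Rptor circRNAs were detected in TLE libraries only, mmu_circ_0000626 at 26.3 SRPBM in replicate 2 and mmu_circ_0000628 at 26.0 SRPBM in replicate 3. Summed over the 3 circRNAs, Rptor had 17.1, 0 and 0 SRPBM in Control (5.70 ± 9.87, SD, n = 3), and 41.3, 70.1 and 43.3 SRPBM were found for TLE (51.6 ± 16.1, SD, n = 3). The groups did not overlap, with TLE above Control as in 10.8% of the host gene sums tested, and the TLE mean was 1.95-fold the Control floor. These values stand for 2 junction reads in Control and 17 in TLE.

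Of the host sums tested here (Rptor, Tsc1, Rictor and Depdc5 without mmu_circ_0008091), that of Rptor alone passed the threshold of the study, with a log2 fold change of 1.65 (standard error 0.62, 95% confidence interval 0.35 to 2.95) and an unadjusted p of 0.0156 in limma. The Rptor sum was above 0 in every TLE library and in 1 Control library, so the TLE libraries alone took it past the filter on low values, and its call is given as a value and not as support for a change. Without that filter the unadjusted p was 0.0302 in limma. Its adjusted p in limma, over all 2179 host gene sums tested, was 0.733. This threshold was passed by 1.61% of the host gene sums tested in the same direction, 35 in number, and by 0.367% in the opposite one. No host gene sum had an adjusted p under 0.05 in limma, and 135 had an unadjusted p under 0.05. Without Control replicate 2 or 3 the log2 fold change was 1.48 in each case, and without TLE replicate 2 it was 1.46, below the threshold.

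TSC1 and TSC2 form the complex that turns off Rheb, the activator of mTORC1. Tsc1 (ENSMUSG00000026812) lies at chr2:28641228-28691167 on the plus strand and has 23 exons, and Tsc2 (ENSMUSG00000002496) at chr17:24595816-24632630 on the minus strand. Of the Tsc1 circRNAs, mmu_circ_0006031 had Control values of 17.1, 18.6 and 0 SRPBM against 0, 0 and 34.6 SRPBM under TLE. It was thus present in libraries of both groups, with 4 junction reads in each group. Its log2 fold change was -0.16 (standard error 0.60, 95% confidence interval -1.42 to 1.11, adjusted p = 0.962, limma), and it was 0.11 without TLE replicate 1 or 2. It was -0.50 without Control replicate 3. With any other library left out, it was above 0 in too few libraries to be fitted.

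The other Tsc1 circRNA, mmu_circ_0006032, had 51.6 SRPBM in TLE replicate 1 and 35.1 SRPBM in TLE replicate 2, with a 0 for TLE replicate 3 and for every Control library. The TLE mean of 28.9 SRPBM was 1.09-fold the Control floor, and the groups overlapped. No TLE library held both Tsc1 circRNAs. Detected in only 2 libraries, mmu_circ_0006032 did not enter the test.

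The sum of both Tsc1 circRNAs had Control values of 17.1, 18.6 and 0 SRPBM against 51.6, 35.1 and 34.6 SRPBM under TLE. The TLE values all exceeded the Control values, a separation also shared by 10.8% of the host gene sums tested. The TLE mean of 40.4 SRPBM was 1.53-fold the Control floor. The log2 fold change of 1.05 (standard error 0.62, 95% confidence interval -0.24 to 2.34, adjusted p = 0.849, limma) did not pass the threshold. For Tsc2, mmu_circ_0003560 had 31.0 SRPBM in TLE replicate 1 and 26.0 SRPBM in TLE replicate 3, which is 3 junction reads each, and a 0 elsewhere.

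Mtor, the kinase itself (ENSMUSG00000028991, chr4:148448611-148557683, plus strand), had the fewest reads per circRNA. The circRNA mmu_circ_0007282 was at 18.6 SRPBM in Control replicate 2 and mmu_circ_0007283 at 43.3 SRPBM in TLE replicate 3, and both were at 0 elsewhere. Neither could be tested.

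Rictor, the scaffold of mTORC2 (ENSMUSG00000050310, chr15:6708379-6800401, plus strand, 38 exons), showed no difference that could be detected at this depth. Its circRNA mmu_circ_0002902 had Control values of 42.7, 0 and 0 SRPBM against 0, 35.1 and 26.0 SRPBM under TLE. The groups overlapped, with a log2 fold change of 0.38 (standard error 0.67, 95% confidence interval -1.05 to 1.80, adjusted p = 0.922, limma). It was 0.08 without Control replicate 2 or 3 and 0.87 without TLE replicate 1. The other, mmu_circ_0002903, was at 17.1 SRPBM in Control replicate 1 and at 0 elsewhere. The Rictor sum had Control values of 59.8, 0 and 0 SRPBM against 0, 35.1 and 26.0 SRPBM under TLE, with a log2 fold change of 0.26 (standard error 0.71, 95% confidence interval -1.24 to 1.75, adjusted p = 0.96, limma). The value for the sum was -0.10 without Control replicate 2 or 3 and 0.75 without TLE replicate 1. With Control replicate 1, TLE replicate 2 or TLE replicate 3 left out, mmu_circ_0002902 and the sum were above 0 in too few libraries to be fitted.

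**Figure D3:**
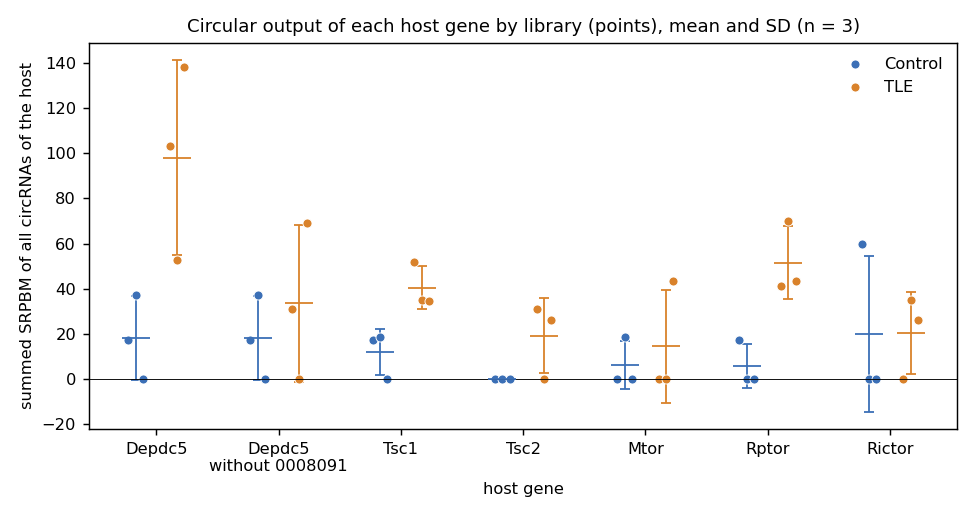
Summed SRPBM of all circRNAs of each host gene in each library (points), with the mean and SD of the 3 libraries of a group (bars), blue for Control and orange for TLE. The TLE points of Depdc5, Tsc1 and Rptor lie above all their Control points, and those of Depdc5 without mmu_circ_0008091, Tsc2, Mtor and Rictor do not. Such a separation was found in 10.8% of the host gene sums tested. The full Depdc5 sum holds mmu_circ_0008091, whose values chose the hosts.

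By mean over the 6 libraries, both groups pooled, the hosts were in the order Depdc5 (58.1 SRPBM), Rptor (28.6), Tsc1 (26.2), Rictor (20.1), Mtor (10.3) and Tsc2 (9.49). In Control alone the order was Rictor (19.9 SRPBM), Depdc5 (18.1), Tsc1 (11.9), Mtor (6.20), Rptor (5.70) and Tsc2 (0), and in TLE alone it was Depdc5 (98.1), Rptor (51.6), Tsc1 (40.4), Rictor (20.3), Tsc2 (19.0) and Mtor (14.4). A junction value is not scaled by gene length, as it counts the reads over a junction, and the sum grows with the number of circRNAs of the host. Neighbours in the pooled order overlapped in their values over the libraries, and each had 0 as its lowest. Among 3506 host entries, Depdc5 ranked 1051 by mean and Tsc2 ranked 2366. Without mmu_circ_0008091 the Depdc5 mean was 25.7 SRPBM, within the range of Rptor, Tsc1 and Rictor.

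In the comparison of single circRNAs, 4 of the 16 had values above 0 in at least 3 libraries and entered the test. A filter of this kind keeps circRNAs present in 1 group throughout, as it did for mmu_circ_0008091 and mmu_circ_0000627. Of the other 3, 0 passed the threshold in either direction in limma and 0 had an unadjusted p under 0.05, where 1.26% of all circRNAs tested were called higher and 0.304% lower. Among the 4271 circRNAs tested, none had an adjusted p under 0.05 in limma, and 222 had an unadjusted p under 0.05. When all 11171 were fitted without the filter, the smallest adjusted p in limma was 6.34e-06. With the filter kept and TLE replicate 1 left out, it was 0.00774 in limma over the 3867 circRNAs then tested. The median log2 fold change over the 4271 tested was 0.17, and it was 0.01 after scaling each library to an equal SRPBM total. This scaling left the Rptor sum at 1.56 and the Tsc1 sum at 0.94, and brought the median over host gene sums from 0.20 to 0.02.

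The wider mTOR pathway was surveyed through 72 other genes, of which 28 had circRNAs, 84 in all. The PI3K and AKT input, which carries growth factor signals to the TSC complex, had the most, with 46 circRNAs of 9 among 13 genes. None of the 5 genes of GATOR2, the complex that holds GATOR1 in check, had a circRNA, and 1 of the 5 genes of KICSTOR and SAMTOR, which tie GATOR1 to the lysosome and to methionine supply, had 1. Of the 12 genes of the Rag GTPases, Ragulator and their regulators, 3 had circRNAs. Of the 9 partners of mTOR in its complexes or in their assembly, 5 had circRNAs, and of the 14 substrates and outputs, 4 had them.

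Of these genes, 16 had summed values above 0 in at least 3 libraries and were tested. None passed the threshold in limma, where 1.61% of all host gene sums tested were called higher and 0.367% lower. Pik3cb alone had an unadjusted p under 0.05 in limma, as did 135 of all 2179 host gene sums tested. Control alone took Pik3cb past the filter, so its p is not support for a change. The median log2 fold change of the 16 was 0.19, beside 0.20 over all host gene sums tested, and 12 of 16 were above 0, beside 65.2% of all.

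Igf1r, Insr, Mapkap1 and Pdpk1 were among the 5 highest sums of the list with a value above 0 in every library. Igf1r, a growth factor receptor, had Control values of 128, 270 and 327 SRPBM against 269, 456 and 372 SRPBM under TLE, with a log2 fold change of 0.62 (95% confidence interval -0.09 to 1.34). The insulin receptor gene Insr had a log2 fold change of 0.08, Mapkap1, which encodes the SIN1 subunit of mTORC2, 0.20, and Pdpk1, the kinase that activates AKT, 0.53. None of these differences passed the test.

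Pik3cb, a catalytic subunit of PI3K, was singled out after its values were seen, and it passed the filter only through Control, where it was high. It is therefore given as a description. Its Control sums were 34.2, 27.9 and 17.2 SRPBM, and every TLE library had a 0. No fold is given, since the Control mean of 26.4 SRPBM was itself at the floor.

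**Figure D4:**
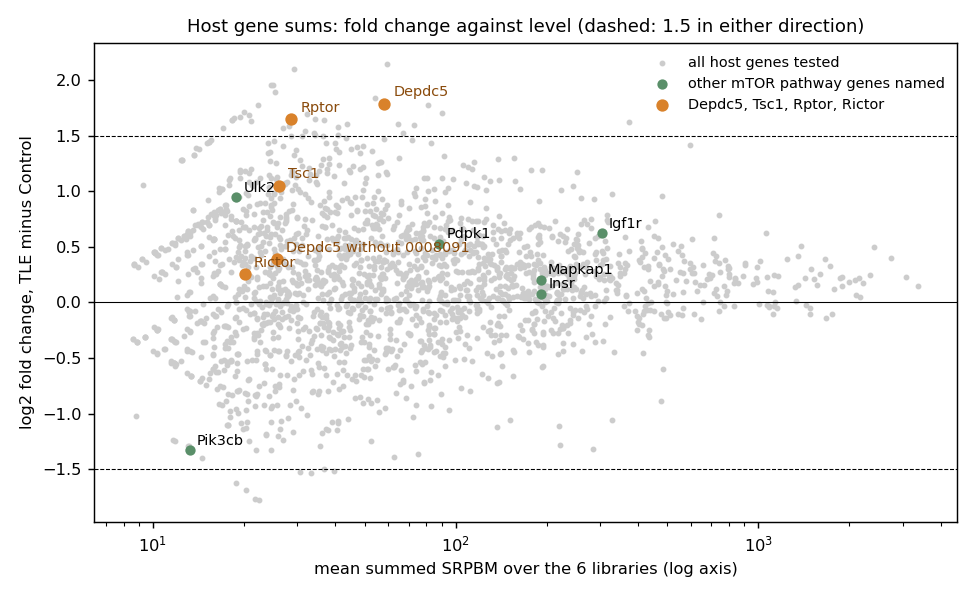
Log2 fold change (TLE minus Control) of the host gene sums against their mean SRPBM over the 6 libraries (log axis), with all tested host genes in grey, Igf1r, Insr, Mapkap1, Pdpk1, Pik3cb and Ulk2 in green and Depdc5, Tsc1, Rptor and Rictor in orange. Depdc5 and Rptor lie above the dashed line at 1.5, Depdc5 without mmu_circ_0008091 lies at 0.39, and Igf1r lies at 0.62. The full Depdc5 sum holds mmu_circ_0008091, whose values chose the hosts, and the TLE libraries alone took Rptor past the filter on low values. Of the host gene sums tested, 1.61% were called higher in TLE. Pik3cb, at 0 in every TLE library and with a Control mean at the floor, is shown as a description.

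The host genes whose summed circRNAs were most like those of Depdc5 across the 6 libraries were Helz (Pearson r = 0.99 of the log2 values), Tenm3 (0.98) and Ctif (0.96), out of 1198 with a value above 0 in every library. The Depdc5 sum here includes mmu_circ_0008091, whose higher values in TLE chose the hosts, so genes higher in TLE come first by construction. Helz, for instance, had Control values of 59.8, 93.0 and 34.5 SRPBM against 196, 96.4 and 199 SRPBM under TLE, with its lowest library, Control replicate 3, the same as that of Depdc5. These 6 points share library depth, and the likeness is a description of the order of the libraries.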

How the data were processed

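CircRNAs were measured in rRNA-depleted cortex RNA of 3 Control and 3 TLE mice. By the methods of the study, reads were aligned with BWA-MEM and circRNAs called with CIRI, and the authors deposited SRPBM, a normalized signal, for each circRNA and library. The submitters' processing notes name build mm10 and DESeq2. The same table was deposited 6 times and read 1 time.

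Every value (100%) was a whole multiple of the step of its library, within 0.05 of a step. These reads served for descriptions (depth, the floor, read totals and the comparison of libraries of a group) and for no test between groups, so edgeR and DESeq2 were not run. TLE and Control were compared with limma 3.58.1 in R 4.3.3 on log2(SRPBM + 17.0914), where the constant is the smallest value above 0, with a two-sided moderated test, a mean-variance trend and no covariates, over circRNAs above 0 in at least 3 libraries and, in the same way, over SRPBM summed by host gene. This scale understates the change of low circRNAs. The p-values were adjusted by the Benjamini-Hochberg method across every feature in the fit. Features called higher or lower had an absolute log2 fold change of 1.5 or more and an unadjusted p under 0.05, after the threshold in the methods of the study, where adjustment of p is left unstated. Since the Depdc5 circRNA prompted the choice of hosts, the Depdc5 sum was tested without it.

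Host genes and lists were chosen with earlier results of these data known, so no p here is independent evidence. By rule, values in every library were given for circRNAs with 10 or more reads, those that share an end with mmu_circ_0008091 and those found throughout 1 group and nowhere in the other. The remaining circRNAs of the 8 hosts, few as they were, were given too. For the other pathway genes the 5 highest means above 0 in all 6 libraries were to be named, and those past the threshold; 1 of the 5 is not reported here. Of the 72 symbols of that list, 71 were found in the gene names used here. circRNA ends were placed on GENCODE M21, preferring the principal transcript, and junction sequences were read from its transcripts. Libraries of the same group differed by more than sampling noise (chi-square per degree of freedom 1.75 to 2.51), and the labels give no batch. Python 3.11.15, numpy 2.4.6, pandas 2.3.3 and matplotlib 3.10.9 were used, and the fit was tested on simulated data.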

Additional observations from a re-analysis of the deposited data

How the results depend on the processing

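The alternatives changed the pseudocount, the filter on low values, the scaling, the variance model, the replicate block, the threshold and the libraries used. The Rptor sum stayed above 0 in each of its 12 alternatives, between 1.46 and 4.28 (1.46 to 1.98 with a library left out), and the value passed the threshold in all but those without Control replicate 2 (1.48), Control replicate 3 (1.48) or TLE replicate 2 (1.46). The alternatives use the same few reads, and the TLE libraries alone took this sum past the filter. Its calls are thus no support for a change. The Tsc1 sum stayed above 0 and short of the threshold in each of its 12 alternatives, between 0.71 and 2.53. With a library left out, the sum of the other Depdc5 circRNAs lay between -0.14 and 1.03, and the Rictor sum between -0.10 and 0.75, turning to -0.10 without Control replicate 2 or 3. For mmu_circ_0006031 it lay between -0.50 and 0.11, turning to 0.11 without TLE replicate 1 or 2. Without Control replicate 1, mmu_circ_0000627 passed the threshold, so that the circRNAs of the 8 hosts called higher, mmu_circ_0008091 not counted, numbered between 0 and 1 with a library left out. That library held the only Control reads of mmu_circ_0000627, and the TLE libraries alone took it past the filter. The call is thus not support for a change. In that setting 97 of all 3722 circRNAs tested were called higher.

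Among the other pathway genes 1 was called lower, Pik3cb, with a pseudocount of 8.55 or 1 SRPBM or a threshold of 1. Control alone took Pik3cb past the filter, so these calls are a description. Without TLE replicate 1, where it was at 0, Ulk2 was called higher, 1 of 54 among 2064 host gene sums. The call is no support for a change, and 0 to 1 were called higher with a library left out. All circRNAs called higher and lower were 54 and 13, then 121 and 47 with a pseudocount of 8.55, 88 and 42 with 1 SRPBM, 1 and 0 when above 0 in all 6 libraries was required, 150 and 46 at a threshold of 1, and 37 and 25 after rescaling to the same total. Left-out libraries gave 33 to 104 higher and 6 to 55 lower. Host gene sums were 35 and 8, then 63 and 17 with a pseudocount of 8.55, 13 lower with 1 SRPBM, 1 and 0 above 0 in all 6 libraries, 93 and 18 at a threshold of 1, 24 and 11 after rescaling, and 24 to 56 higher and 2 to 23 lower with a library left out. None of the 16 circRNAs and none of their hosts was above 0 in all 6 libraries, so that filter gives no value for them, and 7 of the 16 were above 0 in at least 2 libraries. The smallest adjusted p over all circRNAs ranged from 6.34e-06, without a filter on low values, to 0.979, and was 0.00774 without TLE replicate 1.

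Replicates share numbers across the groups, but nothing says that a number marks a pair, and deviations of same-numbered libraries had correlations of 0.01 to 0.02. With the replicate block, 54 circRNAs were higher and 13 lower, the Rptor sum was at 1.65 (unadjusted p of 0.0215 in limma), and no call changed for the hosts or the circRNAs named. edgeR and DESeq2 on recovered reads, planned as alternatives, were not run, because the values are normalized and the smallest is 2 steps. The causes of these changes were not tested. Totals of 6 to 38 junction reads per host limit the precision of all values here.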
